A study of Mus musculus with 157 samples.

Results

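The circadian clock genes examined here were Per1, Per2, Per3, Cry1, Cry2, Nr1d1, Nr1d2, Arntl, Clock and Dbp, 10 of the 19600 genes in a table of 3′ end read counts from polysome gradients of mouse splenic B cells. They were taken by gene symbol, and all 10 symbols had a row. The set was picked because the heavy polysome share of Per1, defined below, was higher after etoposide than before. Every value of Per1 is therefore given as a description without a test. This holds also against LPS+ET+KU, since that comparison uses the same LPS or LPS+ET gradients. B cells of C57BL/6Babr mice were activated with lipopolysaccharide (LPS) at 10 µg/ml for 48 h (LPS), or received etoposide at 20 µM for 4 h after the LPS (LPS+ET). The remaining set had LPS for 47 h, then 1 h with 10 µM KU55933, which inhibits the kinase ATM, and then etoposide (LPS+ET+KU). Etoposide blocks topoisomerase II and leaves double-strand breaks in DNA. All cells, the LPS controls included, were LPS-activated and were treated with cycloheximide, which holds ribosomes on mRNA. The protocol text describes the longest treatment for every sample, and neither the hour of day of harvest nor the number of mice per gradient is given in the sources used here. Whether the LPS controls were kept for the further 4 h of etoposide is not stated. Treatment and time in culture therefore cannot be told apart in contrasts with LPS.

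Each treatment had 4 gradients of 13 sequenced fractions. Fractions 4 to 7 were collected as monosomes, 8 to 10 as light polysomes and 11 to 16 as heavy polysomes. A gradient is named by its treatment and by a tag in the column names, LUL15 to LUL18, since each tag held 1 gradient of each treatment. Gradients with the same tag are called a pool here, and the labels do not say what the tag stands for. Nothing in the labels says that the 4 gradients came from separate animals, so p-values measure the spread between gradients. A gradient held between 6404957 counts (LPS+ET of LUL16) and 21449781 counts (LPS+ET+KU of LUL16), with a median of 12984189. The smallest library, with 14724 counts, was fraction 4 of LPS of LUL18. In fraction 4, 1 count was worth between 0.976 and 67.9 CPM (counts scaled to the same total in every library). Other fractions were thinner in part of the gradients. For Per3 in LPS+ET+KU, 4 counts in fraction 4 gave a mean of 1.81 CPM, and 2 counts in fraction 15 gave 4.58 CPM. All 8 listed B cell markers were present, with a summed level of 7295 to 11690 CPM in the 12 gradients. The 4 T cell markers in the table summed to at most 2.58 CPM and the 5 myeloid markers to 28.1 to 123 CPM, with ranges that overlapped between treatments, and neither of the 2 NK cell markers was in the table. The 1 erythroid marker in the table reached at most 1.24 CPM, in LPS+ET, where all 4 gradients were above the LPS gradients, and its part in the results was not tested.

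The mammalian clock is a feedback loop of transcription. Arntl (BMAL1) and Clock form a dimer that binds E-box sequences and drives the Per, Cry, Nr1d and Dbp genes. PER and CRY proteins return to the nucleus and hold that dimer back, while NR1D1 and NR1D2 (REV-ERB alpha and beta) repress Arntl by binding response elements with an AGGTCA element. DBP and its relatives activate D-box sequences, which the repressor NFIL3 also binds. The clock also runs in lymphocytes, and PER and CRY proteins have been linked to the response to DNA damage.

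Sequences that this circuit reads were looked for in RefSeq promoters of the GRCm38.p6 assembly, from 250 bases before to 50 bases after a start. The start is that of the RefSeq transcript in the table, which for Per1 (chr11:69098949) lies 3732 bases inside the GENCODE gene and for Clock 1290 bases inside. The table of 32851 promoters held 13 promoters of 9 of the 10 genes, all but Per2. The E-box CACGTG was present in promoters of Per1 and Cry1, against 7.15% of all promoters. The D-box TTATGTAA, read on both strands, was present at 2 places in a Per3 promoter, against 0.938% of all promoters. The element AGGTCA or its reverse complement was present for Per1, Clock, Arntl and Nr1d2, against 16.3% of all promoters. The cyclic AMP response element TGACGTCA, found in 1.79% of all promoters, was in 0 of the 13. The windows below show the motifs of the genes whose values are given in most detail, and of Per3 as the D-box example. They are written 5′ to 3′ on the strand of the gene, with the motif in capitals and its first base counted from that start, negative before it. A match describes letters and does not show binding.
Per1, E-box at -166, chr11:69098771-69098800, plus strand: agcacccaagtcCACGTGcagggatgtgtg
Cry1, E-box at -60, chr10:85185097-85185126, minus strand: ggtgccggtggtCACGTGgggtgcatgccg
Nr1d2, AGGTCA element at -77, chr14:18239166-18239195, minus strand: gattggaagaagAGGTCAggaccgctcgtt
Per1, AGGTCA element on the opposite strand at -137, chr11:69098800-69098829, plus strand: gtgacacagcccTGACCTcagtgggggcca
Per3, D-box at -205, chr4:151044852-151044881, minus strand: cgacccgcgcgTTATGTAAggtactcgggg
Per3, D-box at -158, chr4:151044805-151044834, minus strand: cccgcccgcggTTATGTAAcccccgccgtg

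A 3′ end library yields about 1 tag per mRNA molecule whatever its length, and the tags of a gene fall at its poly(A) sites. For Per1 all 11532 counts fell at 1 site in the 3′ UTR, at chr11:69109929 on the plus strand, 31 bases before the annotated end of the gene. Cry1 (chr10:85131707, minus strand), Cry2 (chr2:92403646, minus) and Nr1d1 (chr11:98767932, minus) also had a single 3′ UTR site, and the Nr1d1 site lies within Thra, a gene on the other strand. Most counts of Per2 (89%), Per3 (74.3%), Nr1d2 (94.6%) and Arntl (76.7%) fell at a 3′ UTR site, with the rest largely in introns. The Per3 sites lie within Camta1 on the same strand, so Camta1 transcripts that end there could not be told apart. Dbp was counted at 2 sites in its 3′ UTR, with 59.3% and 40.7% of counts, inside Sphk2 on the opposite strand. Clock differed: 90.8% of its 7948 counts fell in an intron, at chr5:76231876 on the minus strand, 22008 bases before the annotated end, and 9.17% at a 3′ UTR site. The Clock values below therefore describe mainly RNA that ends, or was primed, inside that intron. The poly(A) signal AATAAA stood within 40 bases before the main site of Per2, Per3, Arntl and Dbp, and the variant ATTAAA before that of Cry1, while Per1, Cry2, Nr1d1 and Nr1d2 had neither, and no window was read for Clock. Across 14024 genes 60.5% had AATAAA, 17.4% had ATTAAA and 75.3% had either. The ends of 3 genes are shown, with the signal in capitals, because they are what the libraries read. Each is 30 bases and ends at the counted site, and the Per1 window holds no signal.
Per1, counted site at chr11:69109929, plus strand: ttttgatattgtgtctgttatttttttttt
Cry1, counted site at chr10:85131707, minus strand: ccgtgactttgttATTAAAgtatatgcaaa
Dbp, counted site at chr7:45710155, plus strand: caatcctgAATAAAtcttgagaacccggga

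The level of ribosome-associated mRNA was taken as the counts of fractions 4 to 16 summed per gradient and scaled to CPM. Equal amounts of RNA entered each fraction library, so this sum does not weight fractions by their mRNA content, and in bulk samples fewer expressing cells and less mRNA per cell cannot be told apart. In LPS, Per1 (95.7 ± 19.1 CPM, SD, n = 4), Cry1 (87.2 ± 13.7) and Clock (55.1 ± 17.1) had the highest levels. Their ranges overlapped, so that neighbours in this order did not differ beyond their spread, and Clock did not overlap with the next gene. Dbp (10.1 ± 1.25), Nr1d1 (6.99 ± 1.91), Arntl (6.19 ± 1.03), Per2 (4.13 ± 1.33), Nr1d2 (2.36 ± 0.270), Cry2 (2.27 ± 0.487) and Per3 (1.77 ± 0.506) followed. From Dbp down, the ranges of every pair of neighbours overlapped. Per1 and Cry1 were thus the main period and cryptochrome mRNAs read in these cells, and Per2, Per3 and Cry2 reached at most 5.43 CPM in an LPS gradient.

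**Figure D1:**
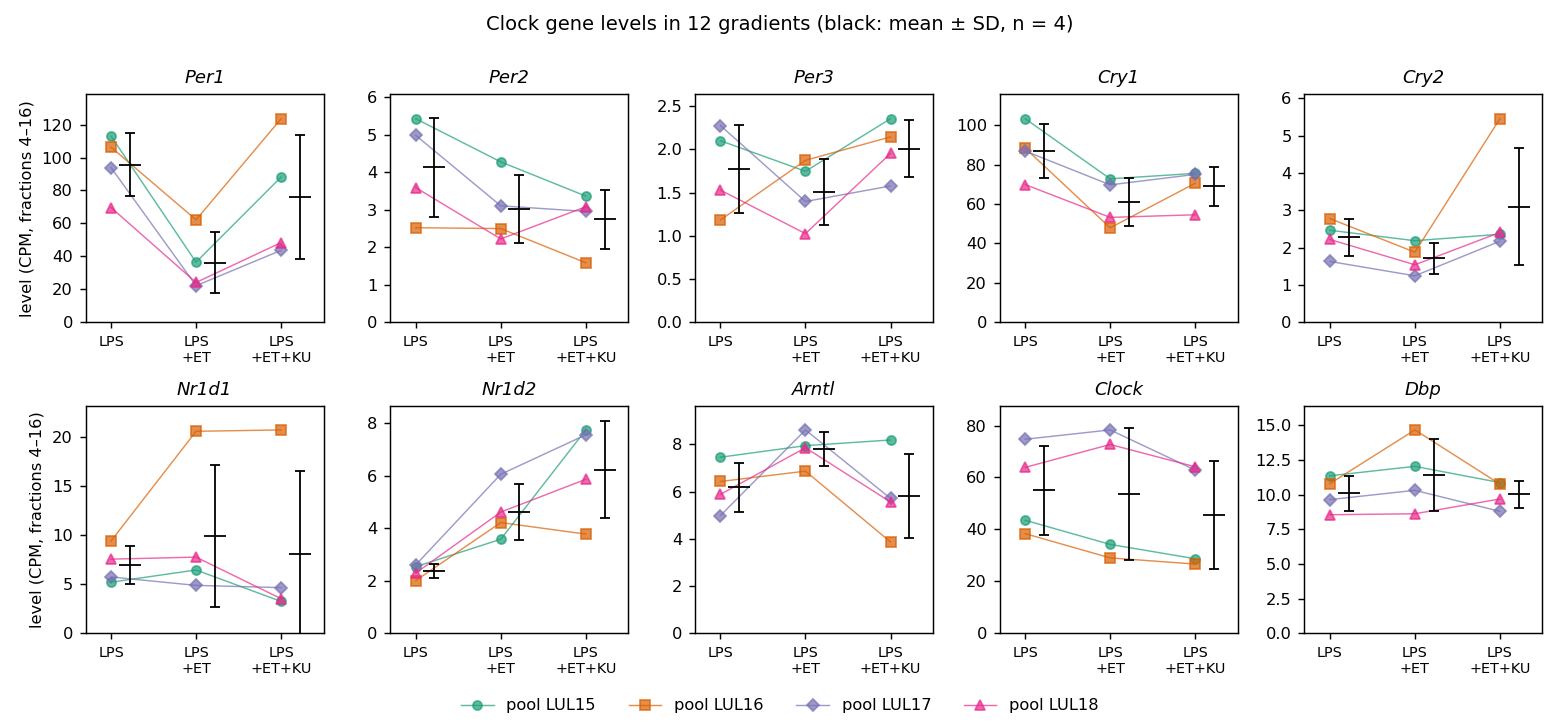
Level of ribosome-associated mRNA in CPM (y axis, linear, from 0) for the 10 clock genes in LPS, LPS+ET and LPS+ET+KU. Points are the 4 gradients of a treatment, thin lines join gradients of the same pool, and bars give mean ± SD (n = 4). Per1 lies at 69.6 to 113 CPM for LPS and 22.1 to 62.1 CPM for LPS+ET, Nr1d2 is lowest in LPS, and Nr1d1 has its 2 highest points in pool LUL16.

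Per1, the period gene that responds fast to many stimuli, had fewer counts in LPS+ET than in LPS. Its level in pools LUL15 to LUL18 was 113, 106, 93.9 and 69.6 CPM for LPS, 36.4, 62.1, 22.1 and 24.1 CPM for LPS+ET, and 88.2, 124, 43.6 and 48.3 CPM for LPS+ET+KU. The LPS and LPS+ET gradients did not overlap, and LPS+ET was lower in 4 of 4 pools, whereas LPS+ET+KU overlapped both. How many of all genes separate in a single contrast was not counted, here or in the paragraphs below. The fitted difference of LPS+ET from LPS was -1.52 on the log2 scale (SE 0.37), a 2.87-fold lower level, and -1.94 without the LPS+ET gradient of LUL16, the shallowest one and the highest of its treatment for Per1. LPS+ET+KU was above LPS+ET within every pool, by 1.97 to 2.42 times. The log2 difference was 1.06 (SE 0.36), 1.48 without LPS+ET of LUL16 and 0.71 without LPS+ET+KU of LUL16, so that 1 gradient moved its size. Against LPS, LPS+ET+KU differed by -0.46 on the log2 scale (SE 0.36).

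Per1 was lower in LPS+ET in monosomes and in light polysomes, while in heavy polysomes the treatments overlapped. Within monosomes its level was 33.4 to 70.9 CPM for LPS, 8.56 to 25.3 for LPS+ET and 30.8 to 90.3 for LPS+ET+KU. Within light polysomes it was 64.8 to 101 CPM, 9.64 to 23.5 CPM and 19.2 to 56.4 CPM in the same order. Within heavy polysomes it was 81.4 to 137 CPM for LPS, 27.9 to 149 CPM for LPS+ET and 56.6 to 210 CPM for LPS+ET+KU. The mean of light polysomes was thus 5.70-fold lower in LPS+ET than in LPS, that of monosomes 3.37-fold lower and that of heavy polysomes 1.80-fold lower, again as a description. In the heavy class LPS+ET of LUL16 was above its LPS gradient (149 against 137 CPM), and the other 3 pools were lower. With the inhibitor the monosome level was above LPS+ET in 4 of 4 pools and the groups did not overlap. The log2 difference was 1.75 (SE 0.36) in monosomes, 1.26 (SE 0.34) in light polysomes and 0.75 (SE 0.52) in heavy polysomes. As descriptions these values rest on the LPS+ET gradients the set was chosen on.

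**Figure D2:**
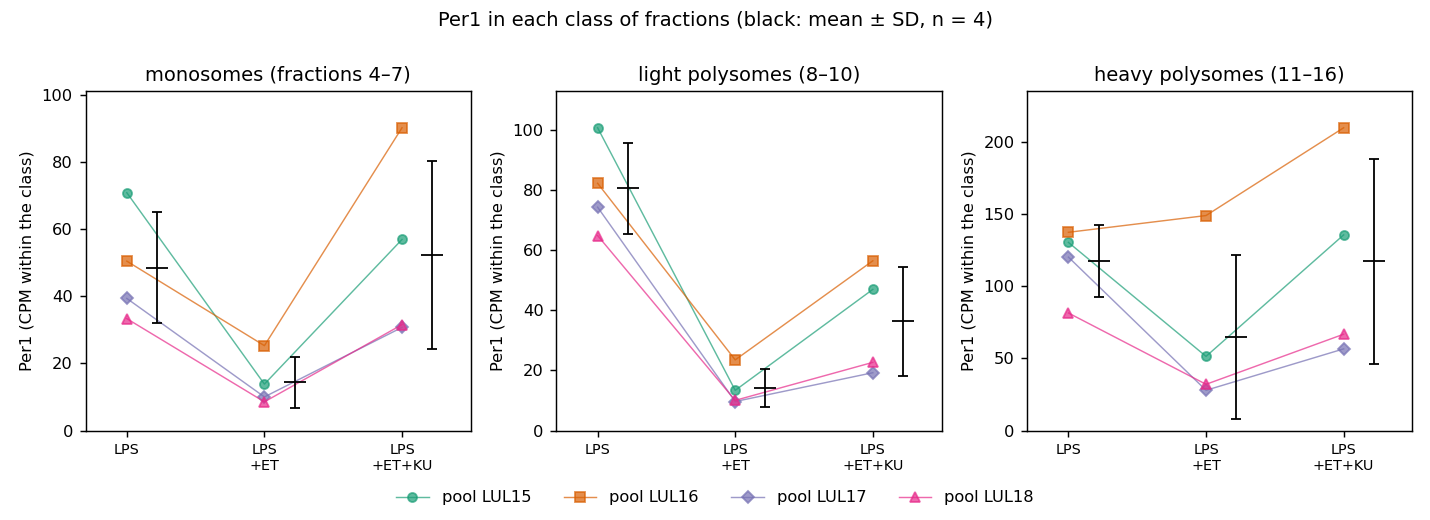
Per1 level in CPM within monosomes, light polysomes and heavy polysomes (y axis, linear), by treatment. Points are gradients, lines join gradients of a pool and bars give mean ± SD (n = 4). Light polysomes separate LPS (64.8 to 101 CPM) from LPS+ET (9.64 to 23.5 CPM), while heavy polysomes overlap.

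The heavy polysome share is the part of a gene's scaled CPM that lies in fractions 11 to 16. Every fraction library was first brought to CPM, and the CPM of fractions 4 to 16 was taken as the whole. All fractions thus weigh the same whatever their RNA content, so the share is not the part of a gene's mRNA molecules on heavy polysomes. The paper reports that etoposide reduced polysome assembly globally, a change that this scaling takes out. For Per1 the heavy share was 65.1%, 70.9%, 66.9% and 62.7% for LPS in LUL15 to LUL18. It was 86.8%, 86.2%, 81.0% and 82.2% for LPS+ET, and 71.1%, 77.6%, 72.0% and 71.8% for LPS+ET+KU. Every LPS+ET gradient was above every gradient of the other treatments. The differences of LPS+ET from LPS within pools ran from 14.1 to 21.6 percentage points, and those of LPS+ET+KU from LPS from 5.12 to 9.15 points. The same share from the counts as deposited, without scaling each fraction, differed by 13.7 points between LPS+ET and LPS, and there the groups overlapped. In LPS+ET+KU the deposited share was 66.3%, 63.7%, 72.0% and 70.9% in LUL15 to LUL18, against 63.9%, 67.5%, 71.1% and 73.0% for LPS. It was thus above LPS in LUL15 and LUL17 and below LPS in LUL16 and LUL18. Counting precision was high for single gradients: in LPS of LUL15, 996 of 1560 deposited counts were heavy (63.9%, 95% Wilson interval 61.4 to 66.2%), and in LPS+ET of LUL18, 243 of 282 (86.2%, 81.7 to 89.7%). These intervals cover counting error of the deposited share only and do not apply to the scaled share.

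Along the gradient, Per1 in LPS had its main peak in fractions 14 and 15 and a low broad shoulder over fractions 6 to 10. In LPS, fractions 14 and 15 held 21.4 ± 3.06% and 20.7 ± 4.46% of its CPM (SD, n = 4), and the shoulder fractions 8, 9 and 10 held 6.86 ± 0.565%, 6.14 ± 0.914% and 6.09 ± 1.98%. In LPS+ET, fractions 14 and 15 held 25.6 ± 3.91% and 26.2 ± 12.0%, and fraction 16 held 17.3 ± 3.27% against 7.33 ± 1.21% for LPS. Fractions 8, 9 and 10 held 2.25 ± 1.20%, 2.41 ± 0.690% and 3.26 ± 0.847% for LPS+ET. The highest fraction was 14 or 15 in all 8 LPS and LPS+ET gradients, and the 2 treatments differed most clearly in the shoulder and in fraction 16. The fraction 16 share rests on 48 Per1 counts over the 4 LPS+ET gradients, against 323 for LPS. With the inhibitor, monosome fractions 6 and 7 held 6.81 ± 1.33% and 5.39 ± 0.676% of Per1, against 1.92 ± 0.748% and 1.28 ± 1.00% for LPS+ET. Fractions 8 and 9 stayed at 2.77 ± 0.739% and 2.37 ± 0.944%, near the LPS+ET values. Fractions 14, 15 and 16 held 29.3 ± 10.6%, 6.91 ± 6.89% and 17.4 ± 10.5% for LPS+ET+KU. Here fraction 15 rests on 88 Per1 counts, with shares of 0 to 14.3%, and fraction 16 on 173, with shares of 6.51 to 31.7%. The shoulder of LPS+ET+KU was therefore at monosomes, while that of LPS ran from monosomes into light polysomes.

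**Figure D3:**
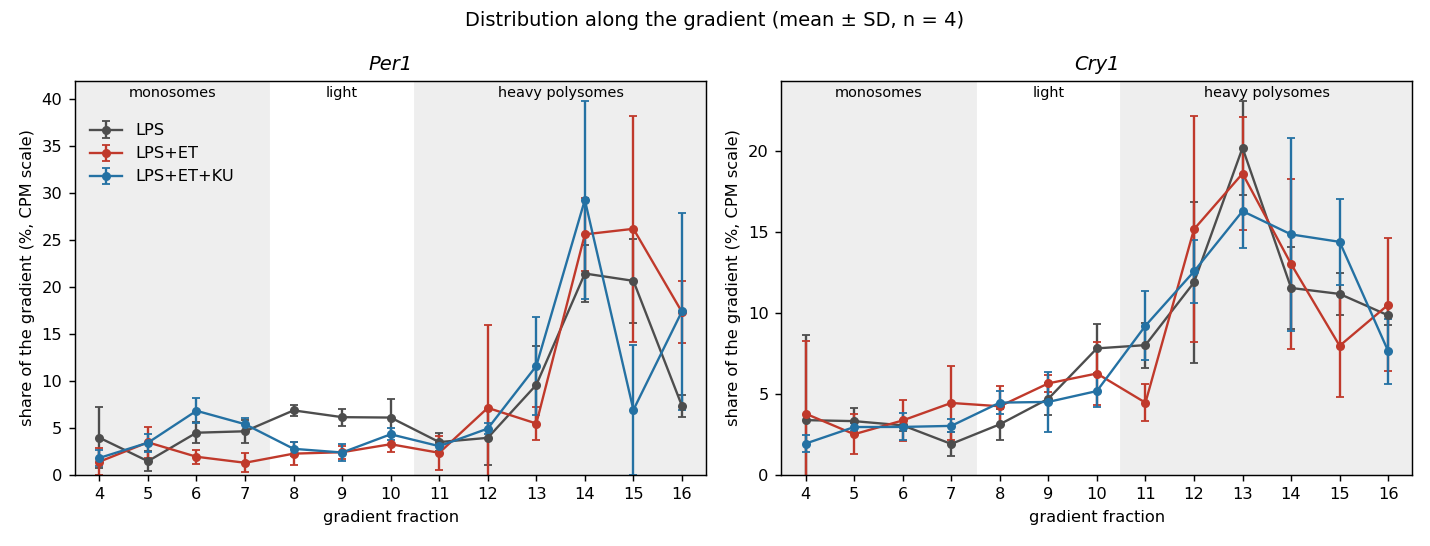
Share of a gene's CPM in each of fractions 4 to 16 (y axis, percent; x axis, fraction number) for Per1 and Cry1, mean ± SD of 4 gradients per treatment. Per1 in LPS+ET has low values over fractions 6 to 10 and 17.3% in fraction 16 (from 48 counts), and Cry1 has its highest mean in fraction 13 in all 3 treatments.

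Of the other period genes, Per2, the second main repressor, was read at 2.52 to 5.43 CPM for LPS, 2.22 to 4.28 CPM for LPS+ET and 1.59 to 3.37 CPM for LPS+ET+KU. Per3, whose loss leaves the clock running, was read at 1.18 to 2.28 CPM, 1.03 to 1.87 CPM and 1.58 to 2.36 CPM in the same order. All of these ranges overlapped. The log2 difference of LPS+ET from LPS was -0.55 (SE 0.31, adjusted p 0.23) for Per2 and -0.34 (SE 0.30, adjusted p 0.476) for Per3. These genes had 12 to 75 counts per gradient, so their heavy shares were coarse. In Per3, LPS of LUL18, 1 count in fraction 4 made 78.7% of the scaled CPM. The 95% interval of the log2 difference from LPS to LPS+ET was -1.15 to 0.05 for Per2 and -0.94 to 0.25 for Per3.

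Cry1, the cryptochrome that represses CLOCK and BMAL1 most strongly, was lower in LPS+ET in every pool. Its level was 103, 88.4, 87.0 and 69.9 CPM for LPS in LUL15 to LUL18, 72.8, 47.9, 69.8 and 53.2 CPM for LPS+ET, and 75.6, 70.6, 75.1 and 54.6 CPM for LPS+ET+KU. The groups overlapped because LUL18 was low throughout, and within pools LPS+ET was lower than LPS in 4 of 4. The log2 difference was -0.63 (SE 0.17), a 1.55-fold lower level, with an adjusted p of 0.0159 in edgeR. This misses the threshold of 0.01, whereas with the pool as a block the adjusted p was 0.00182 and in DESeq2 0.00217 (range over the 7 alternatives 0.00182 to 0.284, the highest with every fraction weighted equally). Within heavy polysomes Cry1 stood at 144, 130, 128 and 93.9 CPM for LPS and at 93.8, 90.9, 87.2 and 68.9 CPM for LPS+ET. These did not overlap, a separation not counted over all genes. The log2 difference in this class was -0.62 (SE 0.20, adjusted p 0.0464, and 0.00884 with the block). Light polysomes were lower as well in 4 of 4 pools and monosomes in 3 of 4, at means of 37.1 against 47.8 CPM and 22.02 against 26.97 CPM, and in both classes the groups overlapped. With the inhibitor heavy polysomes held 120, 119, 115 and 85.9 CPM, above LPS+ET in 4 of 4 pools by 1.25 to 1.32 times, a log2 difference of 0.28 (SE 0.20, adjusted p 0.58). The level of LPS+ET+KU was lower than LPS in 4 of 4 pools, with a log2 difference of -0.45 (SE 0.17, adjusted p 0.0687), which turned to 0.02 when every fraction was weighted equally.

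The heavy share of Cry1 overlapped between treatments. It was 72.7 ± 2.72% for LPS, 69.8 ± 4.24% for LPS+ET and 75.0 ± 3.58% for LPS+ET+KU (SD, n = 4). The share of LPS+ET was higher than that of LPS in 2 pools and lower in 2. The test of treatment together with its interaction with fraction, over single-fraction libraries, called 31% of 10360 genes between LPS+ET and LPS, and of 6 clock genes other than Per1 that could be tested it called Cry1 (adjusted p 0.000123). That test includes the level and treats the 13 libraries of a gradient as independent. With the interaction alone the call was lost, as it was without LPS+ET of LUL18. Between LPS+ET+KU and LPS+ET it called 8.01% of 10472 genes and 0 of 7 clock genes other than Per1, and with the pool as a block 18.3% of genes and 1 clock gene, Cry1. Without the block Cry1 and Dbp had an unadjusted p under 0.05. Cry2, the second cryptochrome, was read at 1.63 to 2.78 CPM for LPS, 1.24 to 2.18 CPM for LPS+ET and 2.17 to 5.46 CPM for LPS+ET+KU. The highest of these was LPS+ET+KU of LUL16, and the groups overlapped. Its log2 differences were -0.55 (SE 0.36, adjusted p 0.305) from LPS to LPS+ET and 0.89 (SE 0.35, adjusted p 0.225) from LPS+ET to LPS+ET+KU.

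Nr1d2 (REV-ERB beta) was the one clock gene that was higher in both etoposide treatments without overlap, a pattern that 11.2% of 12755 genes had. Its level was 2.54, 2.01, 2.60 and 2.29 CPM for LPS in LUL15 to LUL18, 3.58, 4.22, 6.05 and 4.61 CPM for LPS+ET, and 7.74, 3.78, 7.55 and 5.86 CPM for LPS+ET+KU. These values rest on 24 to 115 counts per gradient. LPS+ET+KU was above LPS by 1.28 on the log2 scale (SE 0.27), 2.43-fold, with an adjusted p of 0.00472 in edgeR, in 4 of 4 pools. The call held with the pool as a block (adjusted p 0.000672) and in DESeq2 (0.000534). With the 8 compared gradients alone the adjusted p was 0.0112, the highest of the 7 alternatives, of which 0.000534 was the lowest. Leaving out LPS+ET+KU of LUL16 gave 0.000787, and leaving out any other of the 8 compared gradients gave 0.0115 to 0.0183. LPS+ET was above LPS by 0.87 (SE 0.27, adjusted p 0.0343), and LPS+ET+KU and LPS+ET overlapped (0.41, SE 0.26, adjusted p 0.494). In heavy polysomes Nr1d2 stood at 1.48 to 3.27 CPM for LPS, 2.57 to 7.28 CPM for LPS+ET and 3.85 to 10.8 CPM for LPS+ET+KU.

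Nr1d1 (REV-ERB alpha), its paralogue, showed no such order. It was read at 5.22, 9.42, 5.75 and 7.57 CPM for LPS in LUL15 to LUL18, 6.46, 20.6, 4.89 and 7.78 CPM for LPS+ET, and 3.25, 20.8, 4.66 and 3.53 CPM for LPS+ET+KU. Pool LUL16 was the highest of its treatment in all 3, and the other 9 gradients lay between 3.25 and 7.78 CPM. The log2 difference of LPS+ET from LPS was 0.36 (SE 0.60, adjusted p 0.725) and was -0.28 without LPS+ET of LUL16. That of LPS+ET+KU from LPS was 0.10 (SE 0.60, adjusted p 0.925), and -0.99 without LPS+ET+KU of LUL16.

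The activators were read as follows. Arntl (BMAL1) was at 4.99 to 7.46 CPM for LPS, 6.87 to 8.62 CPM for LPS+ET and 3.87 to 8.19 CPM for LPS+ET+KU. LPS+ET was above LPS in 4 of 4 pools, with a log2 difference of 0.23 (SE 0.22, adjusted p 0.522). In light polysomes Arntl stood at 7.69 to 13.4 CPM for LPS+ET and 3.43 to 6.69 CPM for LPS+ET+KU, without overlap. Its log2 difference there was -1.09 (SE 0.29, adjusted p 0.0767). Per3 separated the other way in this class, at 0.742 to 1.95 CPM for LPS+ET and 2.06 to 2.60 CPM for LPS+ET+KU. How many of all genes separate so was not counted. Clock was at 43.5, 38.4, 74.7 and 63.9 CPM for LPS in LUL15 to LUL18, 34.2, 29, 78.3 and 72.7 CPM for LPS+ET, and 28.7, 26.7, 62.9 and 64.1 CPM for LPS+ET+KU. In each treatment LUL15 and LUL16 were low and LUL17 and LUL18 high, so the split followed the pool and not the treatment. The log2 difference of LPS+ET from LPS was -0.13 (SE 0.41, adjusted p 0.855), and its sign changed when any of LPS of LUL17, LPS+ET of LUL15 or LPS+ET of LUL16 was left out. Within pools Clock was lower in LPS+ET+KU than in LPS+ET in 4 of 4, to between 0.803 and 0.918 of the LPS+ET level (log2 difference -0.23, SE 0.41, adjusted p 0.839).

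Dbp, an output gene of the loop that varies widely over the day in many tissues, was at 8.56 to 11.4 CPM for LPS, 8.63 to 14.7 CPM for LPS+ET and 8.80 to 10.9 CPM for LPS+ET+KU. Its log2 differences were 0.06 (SE 0.18, adjusted p 0.87) from LPS to LPS+ET and -0.13 (SE 0.18, adjusted p 0.651) from LPS to LPS+ET+KU. Its heavy share was 49.0%, 38.4%, 43.1% and 48.2% for LPS in LUL15 to LUL18, 39.9%, 24.2%, 41.5% and 42.4% for LPS+ET, and 40.1%, 30.2%, 40.7% and 38.4% for LPS+ET+KU. The share was below that of LPS in 4 of 4 pools in both etoposide treatments. On the logit scale these differences were -0.33 (SE 0.19, adjusted p 0.351) and -0.30 (SE 0.19, adjusted p 0.398) in limma, and the groups overlapped. The order within pools depended on the processing. From deposited counts the share was 53.5%, 44.8%, 51.7% and 61.6% for LPS and 61.6%, 22.3%, 63.9% and 62.4% for LPS+ET. There LPS+ET was above LPS in every pool but LUL16. Without fraction 4, LPS+ET+KU was above LPS in LUL15 (49.2% against 49.0%) and LUL17 (50.0% against 43.1%), and below it in LUL16 and LUL18.

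Counted over the set, few clock genes passed a test of level. Between LPS+ET and LPS, 0 of 9 members other than Per1 were called by edgeR at an adjusted p under 0.01, where 12.7% of 12755 genes were called (7.88% higher and 4.81% lower). The fit that blocks on the pool called 26.7% of genes and 1 member, Cry1, which DESeq2 called as well. Cry1 and Nr1d2, 2 of 9, had an unadjusted p under 0.05, against 34.4% of all genes. Between LPS+ET+KU and LPS+ET, 0 of 9 were called, against 0.455% (0.22% higher and 0.235% lower), and 0 with the block, against 6.36%. There 1 member, Cry2, had an unadjusted p under 0.05, against 15.9% of genes, and DESeq2 gave 0 calls. Between LPS+ET+KU and LPS, 1 of 9 was called, Nr1d2, against 10.7% (6.25% higher and 4.42% lower). It was also the 1 member called with the block, against 28.1%, and 3 members had an unadjusted p under 0.05, against 35.9%. These contrasts share gradients. The median log2 difference over the 9 members was -0.13, -0.14 and -0.13 in the 3 contrasts, beside 0.03, 0.04 and 0.09 over all genes tested.

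Within monosomes 0 of 5 testable members other than Per1 were called by edgeR between LPS+ET and LPS and 0 of 5 between LPS+ET+KU and LPS+ET, where 9.52% and 0.213% of 8932 genes were. In both, 0 were at an unadjusted p under 0.05, against 32.1% and 13.5% of genes. Within light polysomes 0 of 6 were called in each, against 10.6% and 0.292% of 9922 genes. At an unadjusted p under 0.05 there were 0 and then 1 (Arntl), against 32.6% and 15.3%. Within heavy polysomes 0 of 9 were called in each, against 9.69% and 0.572% of 11368 genes. With the block Cry1 was called in heavy polysomes between LPS+ET and LPS, where 20.6% of genes were. At an unadjusted p under 0.05 there were 2 (Cry1 and Nr1d2) and then 0, against 31.8% and 14.9%. DESeq2 called 0 members in each of these 6 tests.

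For the heavy share, the test required an average of at least 100 counts in a gradient, which 5 members reached: Per1, Cry1, Clock, Nr1d1 and Dbp. The other 4 besides Per1 gave 0 calls in limma in each of the 3 contrasts, and none was at an unadjusted p under 0.05. Over 8000 genes 0.312% were called between LPS+ET and LPS, 0% between LPS+ET+KU and LPS+ET and 0.875% between LPS+ET+KU and LPS, and the shares at an unadjusted p under 0.05 were 20.6%, 8.54% and 21%. Clock stood at 49.2 ± 3.30%, 51.3 ± 2.83% and 52.6 ± 6.28% for LPS, LPS+ET and LPS+ET+KU, and Nr1d1 at 51.4 ± 11.9%, 59.9 ± 20.7% and 53.5 ± 2.78% (SD, n = 4). The 95% interval of the logit difference from LPS to LPS+ET was -0.20 to 0.37 for Clock, read mainly at the intronic site, and -0.43 to 0.14 for Cry1. For Nr1d1 the interval was wide at this depth, from -0.32 to 1.06. The Per1 difference of 0.98 is a description of the rise that chose the set, and is no benchmark for these intervals.

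**Figure D4:**
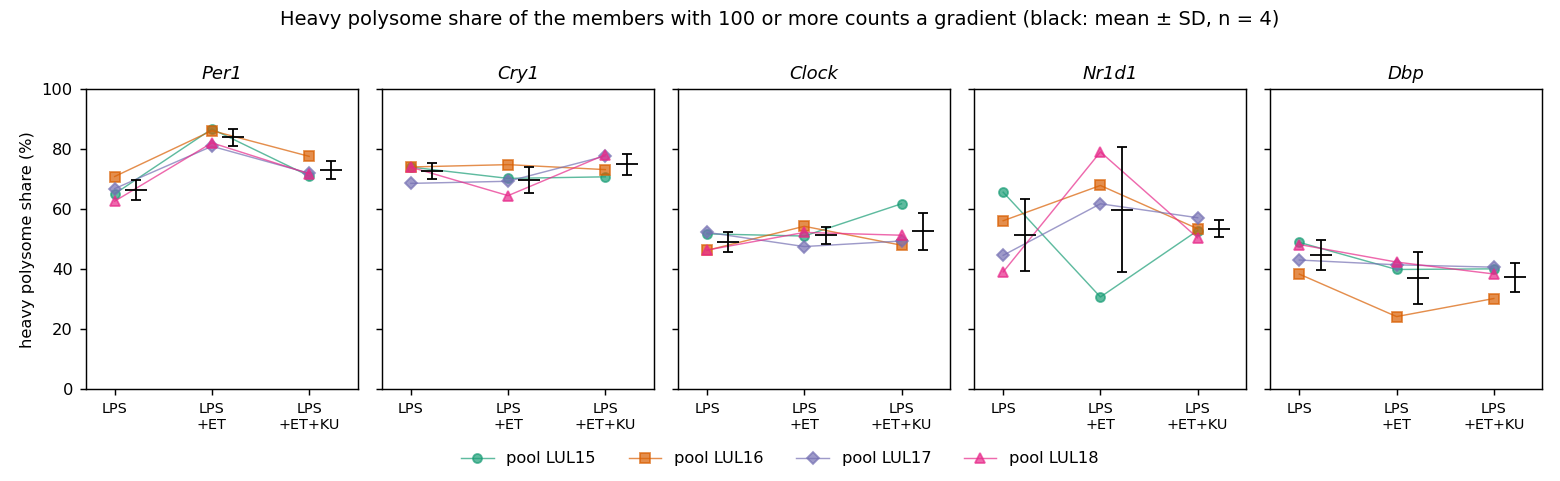
Heavy polysome share (y axis, percent of a gene's scaled CPM in fractions 11 to 16) of the 5 clock genes that averaged at least 100 counts in a gradient. Points are gradients, lines join gradients of a pool and bars give mean ± SD (n = 4). Per1 lies at 62.7 to 70.9% for LPS and 81.0 to 86.8% for LPS+ET, and the ranges of the other 4 genes overlap between treatments.

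The share in LPS was set beside the length of the coding sequence, since a longer coding sequence has room for more ribosomes. Across 7601 genes coding length and the LPS heavy share had a Spearman rho of 0.536, a description across genes, which share libraries and are not independent. Per1 encodes 1291 residues and its LPS share of 66.4% was close to the median of 68.1% of the 605 genes with a coding length between 0.8 and 1.25 times its own. Cry1 encodes 606 residues, and its 72.7% was above that of 86.2% of 1693 genes of like length, whose median was 59.6%. Dbp encodes 325 residues, and its 44.7% compares with a median of 53.6%. Clock encodes 855 residues, with 49.2% beside a median of 64.2%, but its counts came mainly from the intronic site.

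The genes whose level was most like that of Per1 over the 12 gradients, by Pearson r of log2 CPM among 12754 genes, were Hist1h4i (0.969), Batf (0.968), Grap (0.963), Htra2 (0.963) and Agpat3 (0.961). All 5 had a lower mean in LPS+ET than in the other treatments, as with Batf at 545 ± 115, 307 ± 138 and 435 ± 181 CPM for LPS, LPS+ET and LPS+ET+KU (SD, n = 4). For the heavy share, by r of the logit share among 7999 genes, they were Os9 (0.943), Gltpd1 (0.887), Tlr7 (0.877), AC123702.1 (0.875) and Piezo1 (0.873). Os9 had a share of 79.9 ± 1.43%, 86.9 ± 0.715% and 83.4 ± 1.85% in the same order. The genes nearest in level and those nearest in share did not coincide. These values describe likeness over gradients that include the ones the set was chosen on.

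A list of 31 symbols of the wider clock was counted as well: the ROR activators, PAR bZIP factors, BHLHE repressors, kinases, ubiquitin ligases and cofactors. Of these 28 were in the table and 24 could be tested for level. Between LPS+ET and LPS edgeR called 4 of 24 higher and 0 lower, beside 12.7% of all genes, and the median log2 difference was 0.06 beside 0.03 over all genes. With the pool as a block 7 were called, beside 26.7%. Between LPS+ET+KU and LPS+ET 0 were called, beside 0.455%, with 4 at an unadjusted p under 0.05 (15.9% of all genes) and 3 called with the block (6.36%). Between LPS+ET+KU and LPS 6 were called, 4 higher and 2 lower, and 10 with the block, beside 10.7% and 28.1% of all genes.

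Tef, a D-box activator of the same family as Dbp, had the largest log2 difference of the list between LPS+ET and LPS. Its level was 28.5, 28.4, 23.1 and 20.4 CPM for LPS in LUL15 to LUL18, 159, 128, 130 and 127 CPM for LPS+ET, and 81.8, 86.6, 69.1 and 91.7 CPM for LPS+ET+KU. The 3 treatments did not overlap, with LPS lowest and LPS+ET highest. The log2 difference of LPS+ET from LPS was 2.32 (SE 0.17, adjusted p 1.29e-06) and that of LPS+ET+KU from LPS 1.60 (SE 0.16, adjusted p 3.92e-05). LPS+ET+KU was below LPS+ET by -0.72 on the log2 scale (SE 0.16, adjusted p 0.0364, and 0.00441 with the block). Its heavy share was 41.7 ± 11.7%, 40.7 ± 12.4% and 48.5 ± 8.17% in the 3 treatments, and thus overlapped while its level differed 4.99-fold between LPS and LPS+ET. Nfil3, the repressor that binds the same D-box, had another order. It was at 46.7, 61.9, 50.4 and 72.8 CPM for LPS, 55.6, 84.6, 53.0 and 74.1 CPM for LPS+ET, and 142, 219, 112 and 127 CPM for LPS+ET+KU. LPS and LPS+ET overlapped, and LPS+ET+KU was above both. Its log2 difference was 1.25 (SE 0.26, adjusted p 0.00425) from LPS to LPS+ET+KU and 1.15 (SE 0.26, adjusted p 0.0369, and 0.000328 with the block) from LPS+ET to LPS+ET+KU.

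Other regulators that were called include Bhlhe41, a repressor of E-box transcription, at 23.1 to 28.2 CPM for LPS and 38.1 to 90.7 CPM for LPS+ET (log2 difference 1.21, SE 0.28, adjusted p 0.0073). Csnk1e, a kinase that phosphorylates PER proteins, was at 9.48 to 13.0 CPM for LPS, 17.3 to 26.8 CPM for LPS+ET and 19.6 to 25.2 CPM for LPS+ET+KU (0.74 from LPS to LPS+ET, adjusted p 0.00726, and 0.84 from LPS to LPS+ET+KU, adjusted p 0.0041). Both were without overlap between LPS and LPS+ET. Such separation in a single contrast was not counted over all genes, here or for the clock genes above. Sirt1, a deacetylase that associates with CLOCK, was higher in LPS+ET+KU than in LPS by 1.04 on the log2 scale (adjusted p 0.00839). Sirt1 was above LPS in LPS+ET too, at 27.95 to 55.9 against 16.8 to 27.1 CPM. Crebbp, a histone acetyltransferase and coactivator, was lower in LPS+ET+KU than in LPS, by -0.96 (adjusted p 0.00769). It was below LPS in LPS+ET too, at 23.4 to 48.65 against 49.4 to 69.7 CPM. With the pool as a block Sirt1 and Crebbp were both called between LPS+ET and LPS. Wee1, the cell cycle kinase that is also a clock target, was lower in LPS+ET+KU than in LPS, by -0.93 (adjusted p 0.00104). Wee1 in LPS+ET+KU was also below LPS+ET in 4 of 4 pools, at 12.4 to 17.3 against 18.6 to 25.6 CPM (-0.63, SE 0.15, adjusted p 0.0484, and 0.00677 with the block).

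**Figure D5:**
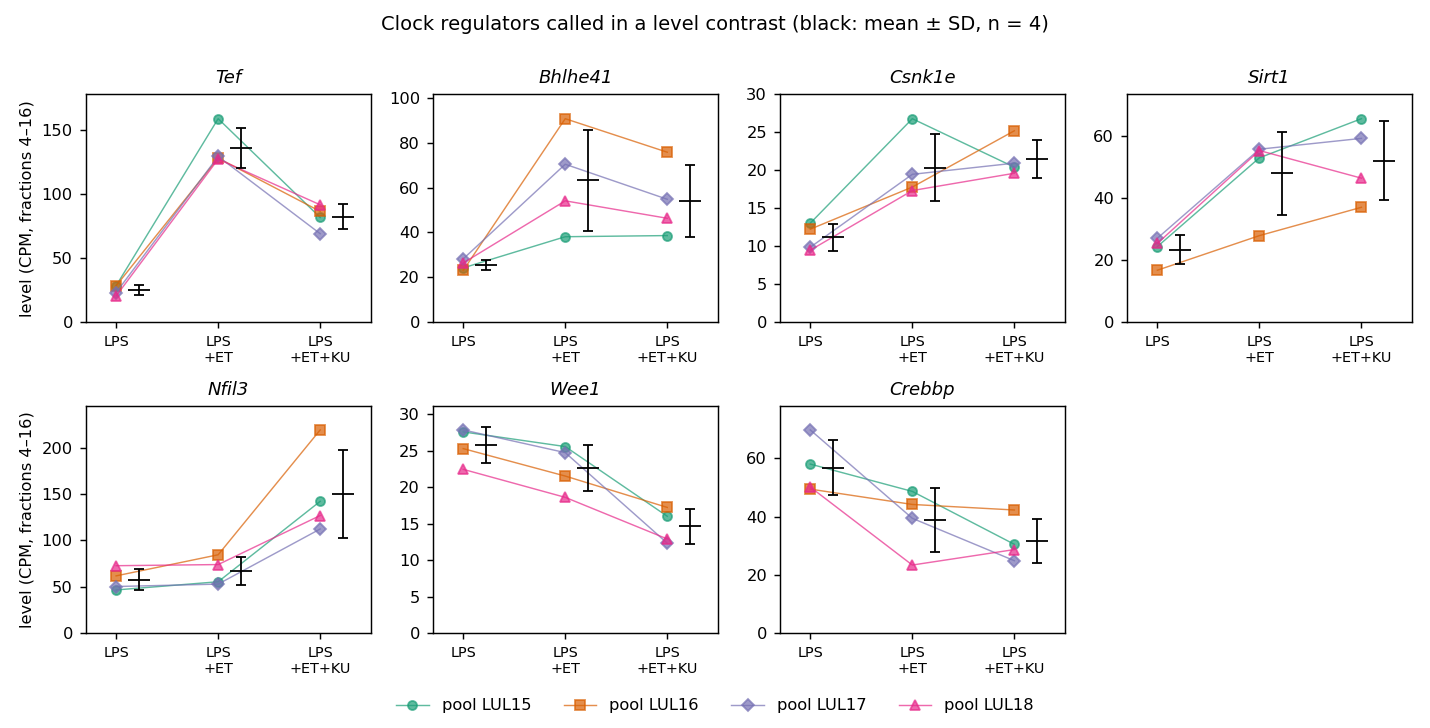
Level in CPM (y axis, linear, from 0) of 7 wider clock regulators called in at least 1 of the 3 contrasts of level, by treatment. Points are gradients, lines join gradients of a pool and bars give mean ± SD (n = 4). Tef separates all 3 treatments, and Nfil3 separates LPS+ET+KU (112 to 219 CPM) from the others (46.7 to 84.6 CPM).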

How the data were processed

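Per the labels and the study's methods, the authors reverse transcribed RNA of each sucrose gradient fraction with barcoded primers, removed PCR duplicates by random bases, aligned tags to GRCm38/mm10 and counted them at poly(A) sites per Ensembl gene. The submitters' notes name TopHat2 2.0.12 and HTSeq. The deposited values are raw counts, checked to be whole numbers. Of 157 columns 78 matched a treatment and fraction but no single labelled replicate. Tags in the column names paired gradients into pools: deviations from treatment means correlated at 0.305 to 0.799 in all 12 same-pool pairs and at -0.628 to 0.284 in 36 others. No libraries were identical.

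Levels (counts summed per gradient, TMM, default expression filter) and single-fraction profiles were tested with edgeR 4.0.16 (quasi-likelihood, R 4.3.3), and logit heavy shares (genes with a mean of 100 counts or more) with limma 3.58.1. Tests were two-sided, with Benjamini-Hochberg adjustment over all genes tested and a threshold of 0.01. DESeq2 1.42.0, the pool block, other filters, scalings and left-out gradients were alternatives. The tests of level, heavy share and profile were tried on simulated data. Sites come from GENCODE M21, and the table's 0-based positions were raised by 1. All 10 members are reported, regulators are named when called in any contrast of level (1 that is in the counts is not reported here), and the 5 genes nearest to Per1 are given. Per1 was planned to count between LPS+ET+KU and the other treatments, and was left out there too because one arm chose the set. Members and lists were chosen with earlier results of these data known.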

Additional observations from a re-analysis of the deposited data

Results flagged for a closer look

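In 7 of 60 groups of 4 gradients (levels and heavy shares of the 10 genes in 3 treatments) 1 gradient stood further from its neighbour than Dixon's 95% limit allows, where chance alone gives about 1 in 20. For levels these were Nr1d1 in LPS+ET+KU of LUL16 (20.8 CPM, nearest 4.66 CPM) and Cry2 in the same gradient (5.46 CPM, nearest 2.41 CPM). For heavy shares they were Per1 in LPS+ET+KU of LUL16 (77.6%, nearest 72.0%), Cry1 in LPS of LUL17 (68.6%, nearest 74.0%) and Dbp in LPS+ET of LUL16 (24.2%, nearest 39.9%). In Per2 in LPS+ET of LUL16 the share was 69.3% (nearest 40.2%) from 16 counts, and in Per3 in LPS of LUL18 it was 12.3% (nearest 53.2%) from 20 counts. Pool LUL16 held 5 of the 7.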

How the results depend on the processing

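Counts of called members other than Per1 kept their value under 54 of 61 alternatives and all but 8 of 112 left-out gradients. With the replicate block (pools pair the gradients), Cry1 was called between LPS+ET and LPS in level (1 gene) and in heavy polysomes (1), and in the profile test between LPS+ET+KU and LPS+ET (1). The block changed no other call of a member. DESeq2 called 1 in level between LPS+ET and LPS (Cry1). A threshold of 0.05 gave 2 there (Cry1 and Nr1d2). Using the 8 compared gradients alone gave 0 in level between LPS+ET+KU and LPS, and the interaction alone gave 0 in the profile test between LPS+ET and LPS. Left-out gradients gave 0 to 1 for both of these. The Per1 share difference between LPS+ET and LPS was 16.4 to 19.1 points with a gradient left out, 13.7 from deposited counts, 18.8 with heavy from fraction 12 and 16.1 without fraction 4, an alternative added after seeing the data. The causes were not tested.

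Log2 differences of level changed sign with equal weight per fraction for Arntl (-0.08), Clock (0.05) between LPS+ET and LPS, Arntl (0.18), Dbp (0.35) and Per2 (0.04) between LPS+ET+KU and LPS+ET, and Arntl (0.10), Nr1d1 (-0.05), Dbp (0.37) and Cry1 (0.02) between LPS+ET+KU and LPS. Nr1d1 there was -0.24 with the replicate block. Left-out gradients changed the sign 15 times in 240, with ranges between LPS+ET and LPS of -0.28 to 0.59 (Nr1d1), -0.11 to 0.14 (Dbp) and -0.38 to 0.06 (Clock), between LPS+ET+KU and LPS+ET of -1.34 to 0.38 (Nr1d1), -0.46 to 0.02 (Clock) and -0.25 to 0.06 (Per2), and between LPS+ET+KU and LPS of -0.11 to 0.47 (Cry2), -0.99 to 0.37 (Nr1d1) and -0.07 to 0.20 (Per3). Depth limits Per2, Per3 and Cry2 most, with as few as 12 counts in a gradient.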

Other observations

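One library from fraction 17 of an LPS gradient entered no comparison. It held 777 counts, of which Per1 and Cry1 had 1 each and the other 8 clock genes 0, a count of 0 allowing up to 3.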
